A study of Mus musculus with 21 samples.

Results

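The SLC25 carriers are the members of solute carrier family 25, and they were followed here in the neocortex of rNLS8 mice, a model of TDP-43 proteinopathy. Every row of the deposited count table whose symbol is Slc25a and a number was taken, which gave 47 of 48474 rows. Rows of the same symbol with a copy suffix and carriers named otherwise (Ucp1 to Ucp3, Mtch1 and Mtch2) were outside this rule. The data covered 21 mice, 11 labelled WT (4 in batch A, 7 in batch B) and 10 labelled TG (3 in batch A, 7 in batch B), and what sets the batches apart was not given in the labels. TG mice were bigenic rNLS8 mice on a C57BL/6J background, in which the neuronal NEFH promoter drives the transactivator tTA and tTA in turn drives human TDP-43ΔNLS, a TDP-43 without its nuclear localization signal. The controls were described as monogenic littermates, so that they may carry either transgene alone. All mice of both groups, aged 17 to 19 weeks, had been injected intracerebroventricularly with an antisense oligonucleotide against no target, at 350 µg in a volume of 10 µL. Their diet held doxycycline at 200 mg/kg, which keeps tTA inactive, until 2 weeks after the injection, and tissue was taken after 3 weeks without it. Sex was not given in the labels. On the tissue, the study's methods name brain cortex, while a figure legend names hippocampus for an rNLS8 cohort of 11 wildtype and 10 rNLS8 mice.

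SLC25 proteins carry metabolites across the inner mitochondrial membrane, which most charged molecules cannot cross on their own. Among their substrates are ADP and ATP, phosphate, carboxylates, amino acids, cofactors, nucleotides and iron, and a few members sit in peroxisomes or in the outer mitochondrial membrane. They are made in the cytosol, handed to the receptor Tom70 and inserted by the TIM22 complex. In the brain they feed ADP and phosphate to ATP synthase, move reducing equivalents through the malate-aspartate shuttle and supply glutamate metabolism in neurons and astrocytes.

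Library totals were 20700912 to 22263809 counts. The Tardbp row, which names the mouse gene, was higher in TG mice by 0.62 on the log2 scale (SE 0.071, adjusted p = 1.50e-07), but unequally in the batches. It held 4405 to 5053 normalized counts in the TG mice of batch B and 2363 to 3091 in those of batch A, against 2253 to 2827 in the WT mice, and TG mouse T61340 of batch A was inside the WT range. Whether reads of the human transgene were counted in this row was not given in the sources used here. All 49 marker genes of neurons, astrocytes, oligodendrocytes, their precursors, microglia, endothelium and erythroid cells were detected. Of the neuron markers, 6 of 10 were lower in TG mice (5 passed in DESeq2) and 0 higher, where 21.7% of all 18248 genes tested were lower and 23.0% higher. Their summed normalized count ran from 158370.0 to 193137 in WT and from 124364 to 154844 in TG mice, without overlap. Of the astrocyte markers, 5 of 8 were lower and 1 (Gfap) was higher, with sums of 88405 to 115742 in WT and 70079.8 to 97716 in TG mice. Of the microglia markers, 6 of 8 were higher and 1 lower, with sums of 7577 to 8773 in WT and 8009 to 12022 in TG mice. In bulk tissue, fewer cells of a type and less RNA per cell cannot be told apart, and the part of these shifts in the results was not tested.

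Members of the family moved in both directions. Of the 47 members, 41 had enough counts to be tested, and 21 of them (51.2%) differed between the genotypes at an adjusted p under 0.05 in edgeR's quasi-likelihood test with batch as covariate, close to the 44.7% of all 18248 genes tested. In TG mice, 9 members (22.0%) were higher, against 23.0% of all genes, and 12 (29.3%) were lower, against 21.7%. Among the higher members were Slc25a25, Slc25a26, Slc25a28, Slc25a36, Slc25a38, Slc25a39, Slc25a42 and Slc25a44. The lower members were Slc25a3, Slc25a4, Slc25a5, Slc25a11, Slc25a12, Slc25a14, Slc25a16, Slc25a18, Slc25a23, Slc25a40, Slc25a46 and Slc25a51. The median log2 fold change over the 41 members was 0.02, beside -0.00067 over all genes, and the median of its absolute value was 0.193, beside 0.178. The changes were small in size, from -0.38 to 0.68. An absolute log2 fold change of 1 was passed by 0 of the 41 members and by 349 of all 18248 genes. That share of all genes is so small that 0 of 41 does not set the family apart. The normalized counts of all TG mice lay outside the WT range in 8 members (19.5%), 5 above it and 3 below it, against 7.65% of all genes. No member that passed the test changed sign in any other scaling, filter or test, in batch A or B alone, or without any single mouse. The balance of directions did depend on scaling. With scaling to library size alone, 14 members were higher and 10 lower, where 8584 of all 18248 genes were called and their median log2 fold change was 0.076.

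**Figure D1:**
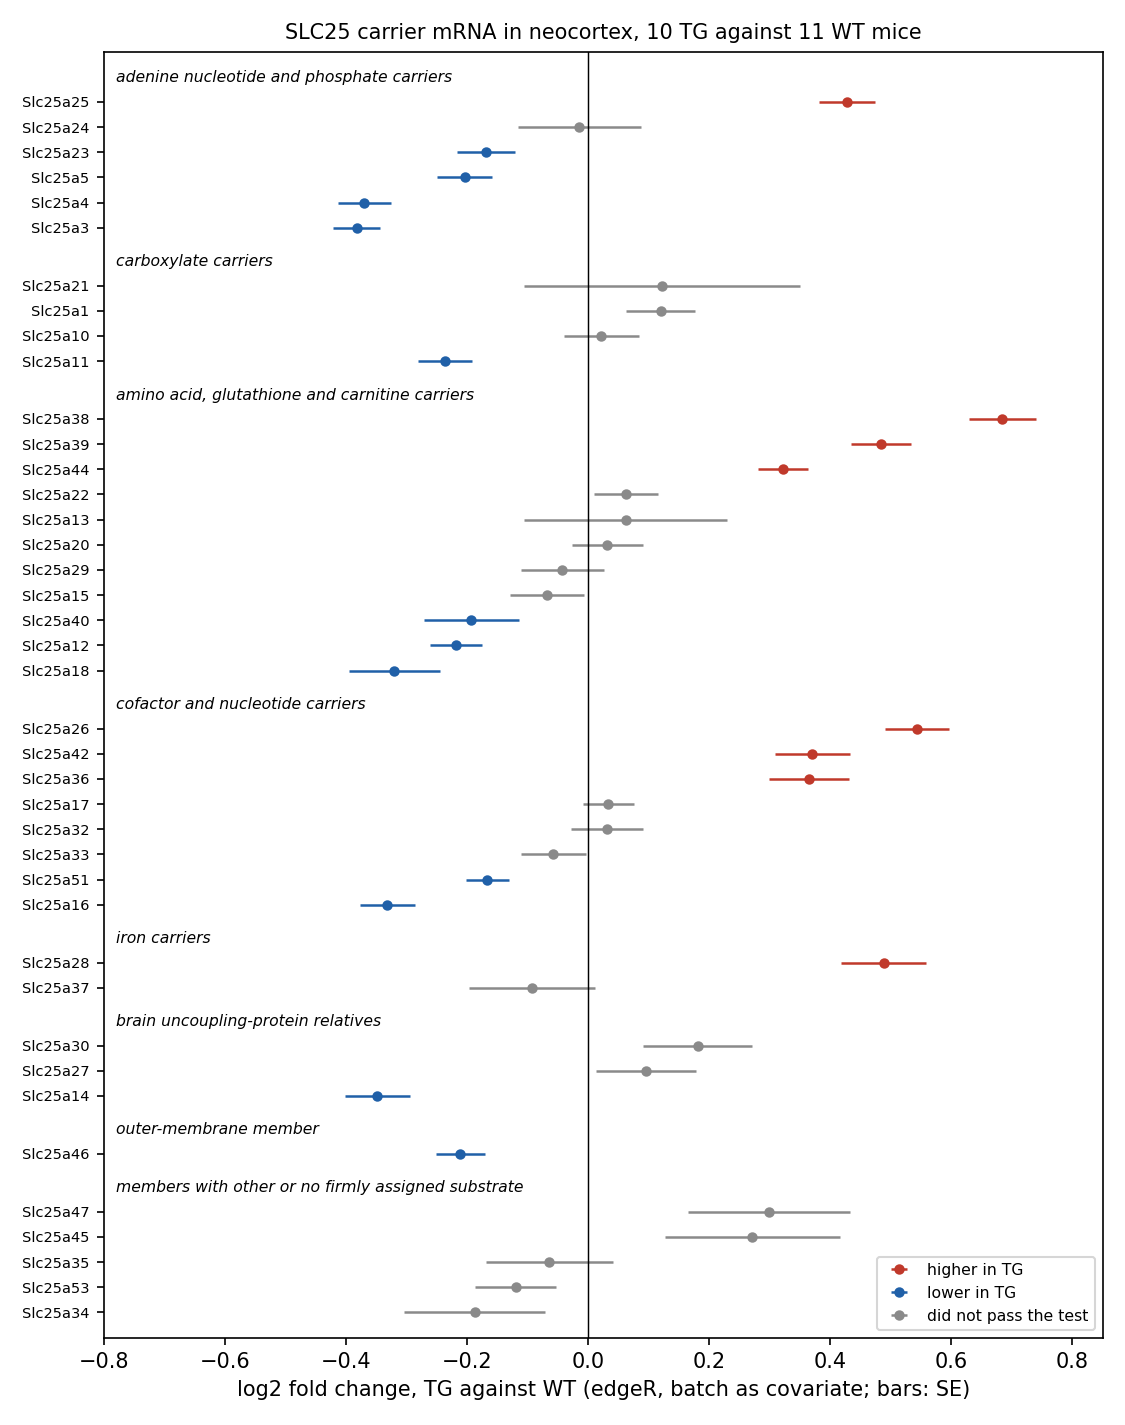
Log2 fold change of TG against WT mice for 40 tested SLC25 members, grouped by role, with points for the edgeR estimate with batch as covariate and bars for its SE. The points run from -0.38 (Slc25a3) to 0.68 (Slc25a38), with 8 members higher (red), 12 lower (blue) and 20 that did not pass the test (grey).

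Of the 8 adenine nucleotide and phosphate carriers, 6 were tested, and 4 were lower, 1 was higher and 1 did not pass the test, where 21.7% of all genes were lower and 23.0% higher. Below, the values of a group are its lowest, median and highest normalized count, that is the count scaled by edgeR's TMM to the mean effective library size. Slc25a4 (chromosome 8, 46206797 to 46211284, all gene positions on GRCm38 from GENCODE M21), the ADP/ATP carrier ANT1 that exchanges cytosolic ADP for ATP, had 11009.5, 11682 and 12734 normalized counts in WT and 7853, 9061 and 10129 in TG mice. Its ranges did not overlap, and its log2 fold change was -0.37 (SE 0.043, adjusted p = 1.86e-07). For Slc25a3 (chromosome 10, 91116574 to 91124059), the phosphate carrier that imports phosphate for ATP synthesis, the counts were 6900.5, 7479 and 7853 in WT and 5189.9, 5682 and 6245 in TG mice. Every TG mouse was again below every WT mouse, with a log2 fold change of -0.38 (SE 0.039, adjusted p = 2.05e-08), or 23.3% less. The second ADP/ATP carrier of the brain, Slc25a5 (ANT2), had 3327, 3567 and 4067 in WT and 2736, 3194 and 3543 in TG mice. Of the 10 TG mice, 8 were below the lowest WT mouse, and the log2 fold change was -0.20 (SE 0.046, adjusted p = 7.94e-04). Within the annotation, 12.01% of the 100-base stretches of Slc25a5 are also found in other genes, mostly Gm5560, so that some of its reads could have been assigned elsewhere.

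The calcium-regulated ATP-Mg/phosphate carriers, which change the adenine nucleotide pool of the matrix, went different ways. Slc25a25 (SCaMC-2, chromosome 2, 32414487 to 32451445) had 1039.8, 1157 and 1352 normalized counts in WT and 1418, 1601 and 1673 in TG mice. All TG mice were above all WT mice, with a log2 fold change of 0.43 (SE 0.046, adjusted p = 5.18e-08). Naif1 overlaps 9.20% of its exonic bases on the opposite strand, and whether counting used strand was not given in the sources used here. In contrast, Slc25a23 (SCaMC-3) had 8195, 9259 and 12906 in WT and 7447, 7959 and 12007 in TG mice, a log2 fold change of -0.17 (SE 0.048, adjusted p = 0.00615). Its level differed between the batches, with 10092 to 12906 in the WT mice of batch A and 8195 to 9597 in those of batch B. Its log2 fold change was -0.09 (SE 0.13, adjusted p = 0.706) in batch A alone and -0.20 (SE 0.043, adjusted p = 0.00107) in batch B alone. It did not pass with scaling to library size alone, at -0.09 (adjusted p = 0.117), or in a model without batch, at -0.19 (adjusted p = 0.0979). The third, Slc25a24 (SCaMC-1), was sparse, with a median of 67.0 in WT and 67.6 in TG mice, and did not pass the test.

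The promoters of the members were searched for 4 motifs, and the stretches with a match are shown for the members that passed the test, which were Slc25a25 and the pyrimidine nucleotide carrier Slc25a36, both higher in TG mice, and Slc25a3, which was lower. RefSeq promoter windows of 300 bases (250 before to 50 after a start site, GRCm38.p6) matched 36 of the 47 members and 32 of the 41 tested. Both strands were searched for TGACGTCA (cAMP response element, CRE), GCGCANGCG (NRF1-type), TCAAGGTCA (ERR-type) and TTGCATCA (CEBP-ATF), each motif counted by itself whether or not it overlapped another. The CRE was in 2 of the 32 tested members (6.25%), Slc25a25 and Slc25a36, and in 413 of the 12655 tested genes with a window (3.26%). The NRF1-type motif was in 1 of 32, Slc25a3, against 13.3% of those genes. The ERR-type and CEBP-ATF letters were in none of the 32 windows, against 0.379% and 0.703%. These are matches of letters in a window and were not tested for binding. The stretches that hold the matches are given below 5′ to 3′ on the strand of the gene, with the match in capitals, and none of them lies in an annotated exon. For Slc25a25 the stretch is chr2:32424149-32424276 on the minus strand, and the CRE begins 150 bases before the start site at 32424066, and this stretch lies within the gene, in an intron of its longer transcripts. For Slc25a36 it is chr9:97111158-97111262 on the minus strand, and the CRE begins 161 bases before the start site at 97111041. For Slc25a3 it is chr10:91124112-91124217 on the minus strand, and the NRF1-type letters, which read in this form on the strand opposite to the motif as written above, begin 213 bases before the start site at 91123967.
Slc25a25: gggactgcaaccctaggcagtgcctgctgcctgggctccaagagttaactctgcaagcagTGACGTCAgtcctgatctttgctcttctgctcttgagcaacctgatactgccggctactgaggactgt
Slc25a36: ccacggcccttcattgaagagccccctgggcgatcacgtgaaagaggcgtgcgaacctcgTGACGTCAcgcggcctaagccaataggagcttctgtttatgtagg
Slc25a3: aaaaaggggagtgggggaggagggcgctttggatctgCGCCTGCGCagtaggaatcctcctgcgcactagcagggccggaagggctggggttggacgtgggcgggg

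Among the carboxylate carriers, 1 of 4 was lower and 0 were higher, a share near the 21.7% of all genes that were lower. This was Slc25a11, the oxoglutarate carrier, which exchanges oxoglutarate for malate in the malate-aspartate shuttle. It had 1745, 1886 and 2021 normalized counts in WT and 1344, 1617 and 1829 in TG mice. The ranges overlapped through 1 TG mouse, and the log2 fold change was -0.24 (SE 0.045, adjusted p = 1.29e-04). Its partner in the shuttle, the aspartate-glutamate carrier Slc25a12 (aralar), the form of neurons, had 2459, 2945 and 3216 in WT and 2040.3, 2537 and 2774 in TG mice, with a log2 fold change of -0.22 (SE 0.042, adjusted p = 1.66e-04). The lowest value of Slc25a12 was that of TG mouse T60303. Citrin (Slc25a13), which does the same exchange in liver, was sparse at a median of 52.1 in WT and 52.0 in TG mice and did not pass the test. The citrate carrier Slc25a1 had a log2 fold change of 0.12 (SE 0.057, adjusted p = 0.0906) and did not pass the test. It passed without WT mouse T61333 (0.15, adjusted p = 0.0323) and without TG mouse T61342 (0.15, adjusted p = 0.037), and scaling to library size alone gave 0.19 (adjusted p = 0.00778). The dicarboxylate carrier Slc25a10 and the oxodicarboxylate carrier Slc25a21 did not pass it either, with log2 fold changes of 0.02 and 0.12.

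The enzymes of the malate-aspartate shuttle and of glutamate metabolism were fitted in the same test. Of 7 genes, 5 were lower and 1 higher in TG mice, where 21.7% of all genes were lower and 23.0% higher, with a median log2 fold change of -0.31. Got1, the cytosolic aspartate aminotransferase, had 5778 to 7928 normalized counts in WT and 3810.4 to 5758 in TG mice, without overlap. Its log2 fold change was -0.51 (SE 0.055, adjusted p = 6.47e-08), and that of Mdh1, the cytosolic malate dehydrogenase, was -0.41 (SE 0.047, adjusted p = 1.74e-07).

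Of the 12 carriers of amino acids, glutathione and carnitine, 11 were tested, and 3 were higher and 3 lower, where 23.0% of all genes were higher and 21.7% lower. Among them are both glutamate carriers. Slc25a18, the glutamate carrier found mainly in astrocytes, had 1238, 1504 and 2088 normalized counts in WT and 877, 1202 and 1651 in TG mice. Its ranges overlapped, and its log2 fold change was -0.32 (SE 0.075, adjusted p = 0.00117). Slc25a22, the more abundant glutamate carrier here, had 3779, 4343 and 5665 in WT and 3714, 4625 and 5738 in TG mice, with a log2 fold change of 0.06 (SE 0.052, adjusted p = 0.352). It passed with scaling to library size alone, at 0.14 (adjusted p = 0.0235). Of the 8 astrocyte markers, the 5 that were lower ranged from -0.32 (Slc1a2) to -0.15 (Slc1a3), while Gfap was higher, at 1.03 (SE 0.11, adjusted p = 4.97e-08), and 2 did not pass the test. Their part in the Slc25a18 result was not tested.

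The largest rise of the family was in a carrier of heme synthesis. Slc25a38 imports glycine, the amino acid that together with succinyl-CoA starts heme synthesis, and lies on chromosome 9 from 120110374 to 120124504. It had 371, 434 and 486 normalized counts in WT and 578, 663 and 928 in TG mice. All TG mice were above all WT mice, and the highest of them was TG mouse T61340. The log2 fold change was 0.68 (SE 0.055, adjusted p = 5.37e-10), or 60.7% more. The glutathione importer Slc25a39 had 815, 929.5 and 1164 in WT and 1108, 1290.2 and 1892 in TG mice, 7 of which were above the highest WT mouse, with a log2 fold change of 0.48 (SE 0.049, adjusted p = 2.15e-08). Within each batch every TG mouse was above every WT mouse, at 1522 to 1892 beside 1050.3 to 1164 in batch A and 1108 to 1354 beside 815 to 959 in batch B. Its close relative Slc25a40, which also imports glutathione, had far fewer counts, 130.3, 152 and 184 in WT and 115, 129.8 and 162 in TG mice. Its log2 fold change of -0.19 (SE 0.079, adjusted p = 0.0495) was just past the threshold, and the call was lost when any of 12 of the 21 mice was left out, with adjusted p up to 0.0982, and under 8 of the 11 other settings. Within the annotation, 6.98% of the 100-base stretches of Slc25a40 are also found in other genes, mostly Gm5066. Slc25a44 (chromosome 3, 88410498 to 88425139), the carrier of branched-chain amino acids, had 1926, 2122 and 2374 in WT and 2463, 2618 and 3032 in TG mice. Its ranges did not overlap, and its log2 fold change was 0.32 (SE 0.041, adjusted p = 7.78e-07). The ornithine carrier Slc25a15, the carnitine-acylcarnitine carrier Slc25a20 and the basic amino acid carrier Slc25a29 did not pass the test, with log2 fold changes of -0.07, 0.03 and -0.04.

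**Figure D2:**
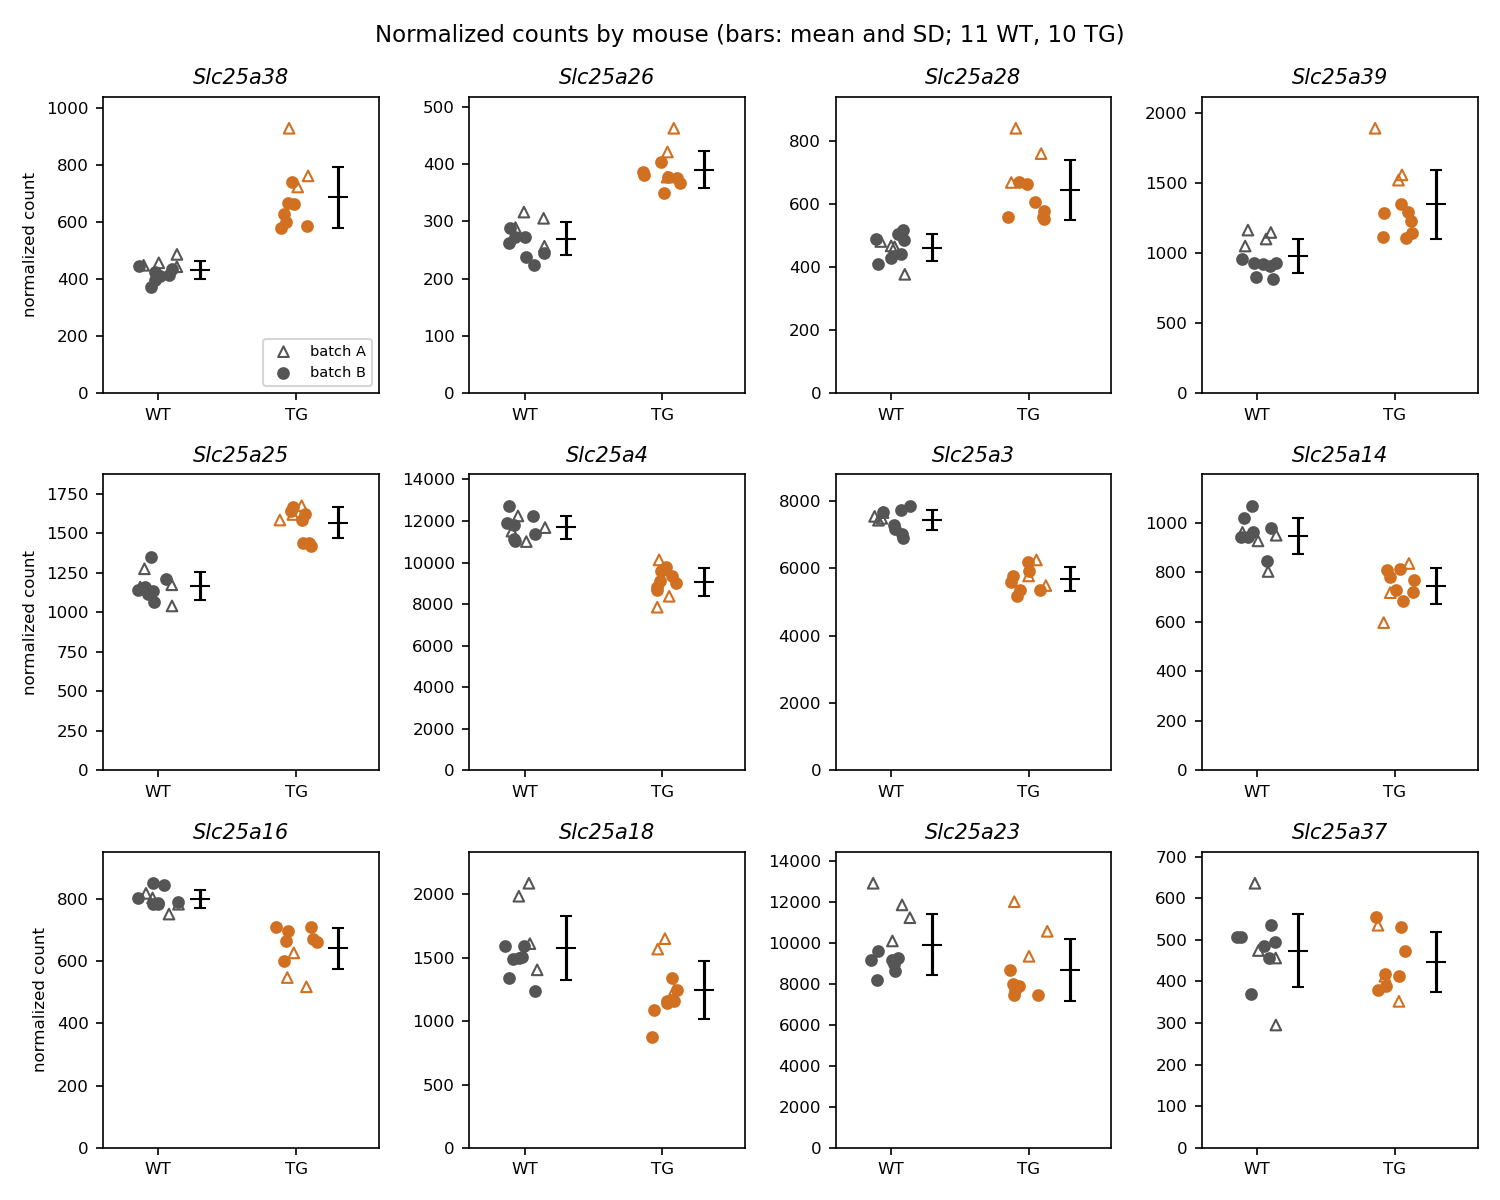
Normalized counts of 12 SLC25 members in each mouse, WT in grey and TG in orange, with triangles for batch A, circles for batch B and bars for the mean and SD of 11 WT and 10 TG mice. Every axis starts at 0, and the TG mice lie outside the WT range for Slc25a38, Slc25a26, Slc25a28, Slc25a25, Slc25a4, Slc25a3 and Slc25a16, but overlap it for Slc25a39, Slc25a14, Slc25a18, Slc25a23 and Slc25a37.

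Of the 9 cofactor and nucleotide carriers, 4 were higher and 2 lower, where 23.0% of all genes were higher and 21.7% lower. Slc25a26 (chromosome 6, 94500331 to 94604672) imports S-adenosylmethionine, the methyl donor of the matrix. It had 224, 273 and 316 normalized counts in WT and 349.9, 379 and 463 in TG mice. The ranges did not overlap, with a log2 fold change of 0.54 (SE 0.053, adjusted p = 1.08e-08). Lrig1 overlaps 7.23% of its exonic bases on the opposite strand. Slc25a42, a coenzyme A carrier, had 417, 472 and 578 in WT and 475, 645 and 785 in TG mice, 6 of which were above the highest WT mouse. Its log2 fold change was 0.37 (SE 0.062, adjusted p = 2.89e-05). Slc25a36, a pyrimidine nucleotide carrier, had 603, 832 and 955 in WT and 769.7, 1107 and 1231 in TG mice. It was above the highest WT mouse in 9 of 10 TG mice, the other being TG mouse T61340, and the log2 fold change was 0.37 (SE 0.066, adjusted p = 7.23e-05).

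In the opposite direction, Slc25a16 (chromosome 10, 62920633 to 62946498), which has been linked to coenzyme A in mitochondria, had 751, 789 and 850.1 normalized counts in WT and 517, 663 and 710.4 in TG mice. Every TG mouse was below every WT mouse, and the log2 fold change was -0.33 (SE 0.046, adjusted p = 2.07e-06). Slc25a16 and Slc25a42, both tied to coenzyme A, moved in opposite directions. The NAD carrier Slc25a51 was lower as well, with a log2 fold change of -0.17 (SE 0.036, adjusted p = 4.59e-04). The peroxisomal member Slc25a17, the folate and FAD carrier Slc25a32 and the other pyrimidine nucleotide carrier Slc25a33 did not pass the test, with log2 fold changes between -0.06 and 0.03.

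The 2 mitoferrins, which bring iron into the matrix for heme and iron-sulfur clusters, were called differently, as 1 was higher and the other did not pass the test, where 23.0% of all genes were higher. Slc25a28 (mitoferrin-2, chromosome 19, 43663801 to 43674881), the form of non-erythroid tissue, had 377, 467 and 518 normalized counts in WT and 553, 634 and 840.3 in TG mice. All TG mice were above all WT mice, and the log2 fold change was 0.49 (SE 0.070, adjusted p = 3.55e-06). Slc25a37 (mitoferrin-1), the form of erythroid cells, had 295, 485 and 636 in WT and 352, 415 and 554 in TG mice, with a log2 fold change of -0.09 (SE 0.10, adjusted p = 0.502). The summed erythroid markers varied widely, from 1338 to 8045 in WT and from 634 to 5179 in TG mice, and 0 of 5 passed the edgeR test, 0 at an unadjusted p under 0.05 and 0 in DESeq2. Of 9 enzymes of heme and iron-sulfur synthesis, 2 were higher and 2 lower, a share near the 44.7% of all genes that were called. Those past the test with the largest size were Hscb, a cochaperone of iron-sulfur cluster transfer, at 0.49 (SE 0.10, adjusted p = 3.53e-04), and Nfs1, the cysteine desulfurase that supplies sulfur to the clusters, at 0.25 (SE 0.046, adjusted p = 9.90e-05). The 2 lower ones were Glrx5, at -0.20 (SE 0.050, adjusted p = 0.00173), and Fech, at -0.15 (SE 0.037, adjusted p = 0.00183). The other 5, Alas1 among them, did not pass the test.

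Of the 3 brain relatives of the uncoupling proteins, 1 was lower and 2 did not pass the test, beside 21.7% of all genes that were lower. Slc25a14 (UCP5) had 804, 950.2 and 1069 normalized counts in WT and 597, 748 and 836 in TG mice, 7 of which were below the lowest WT mouse. Its log2 fold change was -0.35 (SE 0.054, adjusted p = 1.12e-05). Slc25a27 (UCP4) had 476, 788 and 855 in WT and 659, 788 and 966 in TG mice, with a log2 fold change of 0.09 (SE 0.083, adjusted p = 0.375). Slc25a30 (KMCP1) had 83.2, 102 and 109 in WT and 68.6, 118 and 140.3 in TG mice. It was above the highest WT mouse in 7 TG mice and below the lowest in 1, and its log2 fold change of 0.18 (SE 0.090, adjusted p = 0.108) did not pass the test. Without TG mouse T61340 it was 0.24 (adjusted p = 0.0164), and without TG mouse T_69526 it was 0.22 (adjusted p = 0.0448). Slc25a46, a member of the outer membrane that takes part in mitochondrial fusion and fission, had 1526, 1814 and 1928 in WT and 1394, 1562 and 1672 in TG mice, a log2 fold change of -0.21 (SE 0.040, adjusted p = 1.40e-04). B930094E09Rik overlaps 8.56% of its exonic bases on the opposite strand. Of the 10 neuron markers, 6 were lower and 4 did not pass the test, as given above, and their part in the lower members was not tested.

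Of the 8 members with another or no firmly assigned substrate, 5 were tested and 0 passed in edgeR, where 44.7% of all genes did, 1 (Slc25a47) had an unadjusted p under 0.05, and 0 passed in DESeq2. Their log2 fold changes ran from -0.19 (Slc25a34) to 0.30 (Slc25a47), with SE of 0.067 to 0.14. Slc25a47 passed without WT mouse T_69532 (0.36, adjusted p = 0.0302) or TG mouse T_69531 (0.34, adjusted p = 0.0489), and Slc25a45 without TG mouse T61342 (0.35, adjusted p = 0.0433). The 6 members that were not tested were Slc25a2, Slc25a31, Slc25a41, Slc25a43, Slc25a48 and Slc25a54. Slc25a43 had at most 8 counts in a mouse, and Slc25a31, the ADP/ATP carrier of the testis, had 17 in all 21 mice together. Slc25a54 had 0 counts in every mouse, where 3 counts would be between 0.135 and 0.145 CPM, and a lower level was not detectable at this depth.

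Between members, levels were compared as normalized counts per kb of exon in the 11 WT mice. Slc25a4 was the most abundant, with 6077 ± 287 per kb (SD), followed by Slc25a3 with 3816 ± 158. Slc25a23 with 2948 ± 438 and Slc25a5 with 2939 ± 191 came next and did not differ beyond their SD. Slc25a22 was the fifth with 1556 ± 207. The others ranged from 1103 per kb (Slc25a11) down to 3.81 (Slc25a21) among those tested. Of the 5 most abundant members, 4 were lower in TG mice, by 11.03 to 23.3%, where 21.7% of all genes were lower, and Slc25a22 did not pass the test. Of these 4, Slc25a23 lost its call in the settings named above. The median level in WT mice was 673 per kb for the 12 lower members, 283 for the 9 higher members and 69.5 for the 20 that did not pass the test. Across the 41 members, Spearman's rho between mean normalized count and log2 fold change was -0.315, beside -0.080 across all genes. Between GC content of the longest transcript and log2 fold change it was 0.283, beside 0.082 across the 16149 of 18248 genes that had a value. These are descriptions across genes of the same libraries, and genes are not independent replicates. All 47 members together held 0.267% to 0.296% of the counts of a WT mouse and 0.254% to 0.302% of those of a TG mouse.

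**Figure D3:**
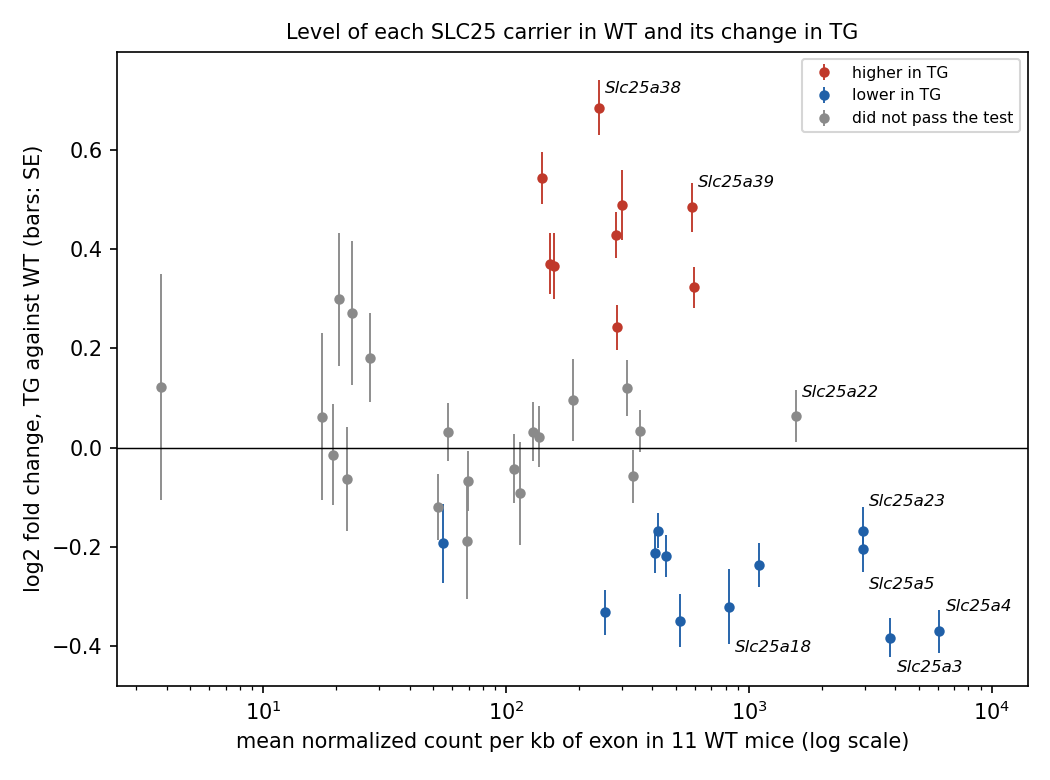
Mean level of the 41 tested SLC25 members in 11 WT mice, in normalized counts per kb of exon on a log scale, against their log2 fold change in TG mice with bars for its SE. The most abundant members, Slc25a4, Slc25a3, Slc25a23 and Slc25a5, lie below 0, while the 9 higher members lie between 140.5 and 593 per kb.

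The batches were also taken one at a time. In batch A, with 3 TG and 4 WT mice, 7 members were higher and 1 was lower, 8 of 41 in all (19.5%), beside 11.8% of all genes. The higher members were Slc25a25, Slc25a26, Slc25a28, Slc25a38, Slc25a39, Slc25a42 and Slc25a44, and the lower member was Slc25a16. In batch B, with 7 mice of each genotype, 10 were higher and 11 lower, 21 of 41 (51.2%), beside 39.1% of all genes. These 21 were those called in both batches together, with Slc25a30 in place of Slc25a40. The log2 fold change of Slc25a4 was -0.38 (SE 0.12, adjusted p = 0.0664) in batch A and -0.36 (SE 0.042, adjusted p = 1.99e-06) in batch B, and that of Slc25a3 was -0.34 (SE 0.10, adjusted p = 0.051) and -0.40 (SE 0.045, adjusted p = 1.53e-06). All 21 members called in both batches together had the same sign in each batch, and over the 41 tested members the sign was shared by 34 (82.9%), beside 79.3% of all genes.

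A difference of the genotype effect between the batches was tested by the interaction in edgeR. It was past the threshold for 0 of the 41 members and for 0 of all 18248 genes (0%), with 3 members and 1030 genes at an unadjusted p under 0.05. The 3 were Slc25a28, Slc25a13 and Slc25a16. The log2 fold change of Slc25a28 was 0.78 (SE 0.13, adjusted p = 0.00366) in batch A and 0.35 (SE 0.064, adjusted p = 3.16e-04) in batch B, a difference of 0.41 (SE 0.13, unadjusted p = 0.00361, adjusted p = 0.853). Slc25a13 had opposite signs, -0.52 in batch A and 0.33 in batch B (unadjusted p = 0.0108, adjusted p = 0.853 for the difference), at a highest count of 91 in any mouse.

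**Figure D4:**
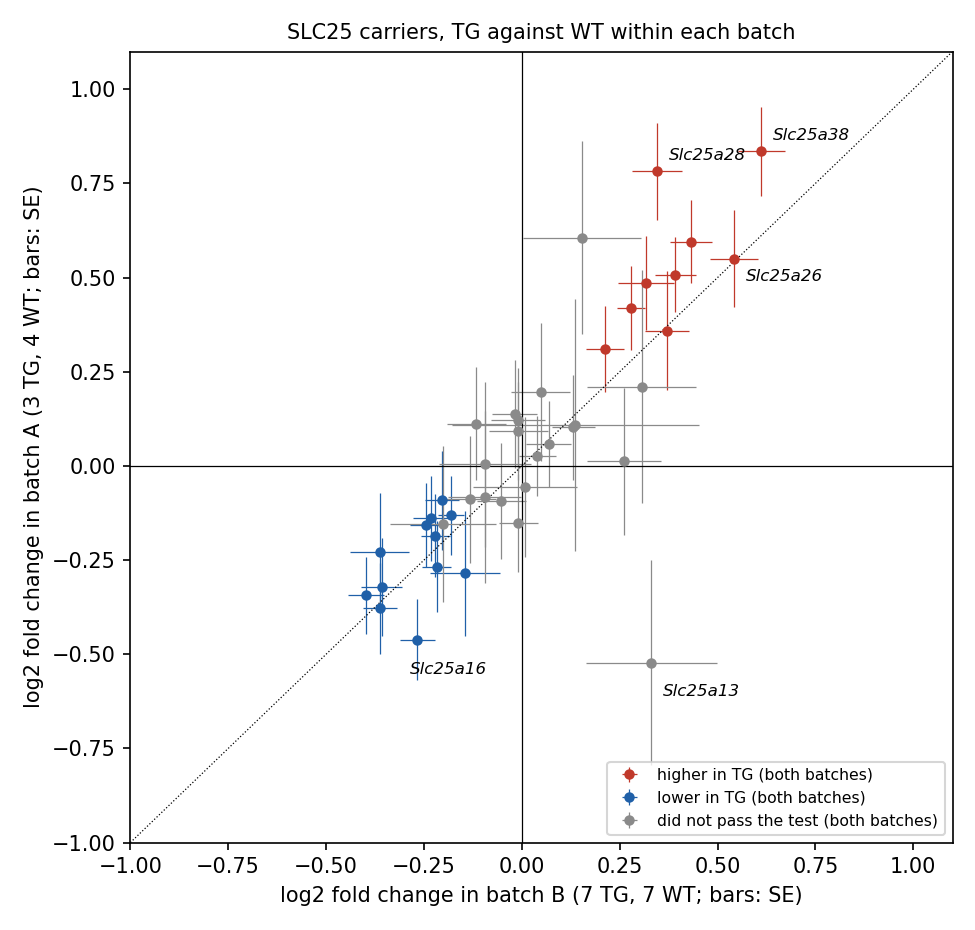
Log2 fold change of TG against WT mice for the 41 tested SLC25 members in batch A (3 TG, 4 WT) against batch B (7 TG, 7 WT), with bars for the SE, a dotted line where both are equal, and colours as called in both batches together. The higher and lower members lie in the upper right and lower left, and Slc25a13, which did not pass the test, lies at 0.33 in batch B and -0.52 in batch A.

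The machinery around the carriers was read from lists of other genes in the same fit. Of the 4 tested proteins of the family that carry other names, 1 was higher and 3 were lower, where 23.0% of all genes were higher and 21.7% lower. The largest changes were those of Ucp2, an uncoupling protein also found in microglia, at 0.42 (SE 0.12, adjusted p = 0.00691), and of Mtch2, an insertase of the outer membrane, at -0.41 (SE 0.039, adjusted p = 6.62e-09). Of 16 genes for the import of carriers through TOM and TIM22, 4 were higher and 6 lower, beside the 44.7% of all genes that were called. Tomm70a, the receptor that carriers bind first, was at 3112 to 4636 normalized counts in WT and 1809 to 2882 in TG mice, a log2 fold change of -0.63 (SE 0.059, adjusted p = 5.60e-09). Agk, a lipid kinase that is also a subunit of the TIM22 complex, was at -0.49 (SE 0.049, adjusted p = 1.78e-08). Timm22, the channel of that complex, which was singled out after its value was seen, rose by 0.38 (SE 0.047, adjusted p = 5.66e-07). Of 21 other mitochondrial transporters and channels, 4 were higher and 8 lower, to be read beside the same shares. Among them, Vdac1, the main anion channel of the outer membrane, was at -0.38 (SE 0.045, adjusted p = 2.12e-07), and Sfxn3, a sideroflexin of the inner membrane, at 0.32 (SE 0.042, adjusted p = 1.44e-06). Of 8 partner enzymes of the citrate and carnitine carriers, 0 were higher and 2 lower, the latter near the share of all genes, namely Acss2, a cytosolic acetyl-CoA synthetase, at -0.43 (SE 0.038, adjusted p = 2.27e-09), and Cs, citrate synthase, at -0.12 (SE 0.038, adjusted p = 0.0162). The median log2 fold change was -0.31 for the family proteins of other names, -0.10 for import, -0.10 for the other transporters and -0.05 for the citrate and carnitine enzymes, beside -0.00067 over all genes.

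Without TG mouse T61340, whose Tardbp count was inside the WT range, 20 of the 21 calls were kept, Slc25a40 was lost and Slc25a30 was gained. The same held without TG mice T60303 and T61340 together, an alternative chosen after seeing the data.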

How the data were processed

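RNA of neocortex, a tissue on which the study's methods and figure legend differ as given above, was sequenced by the study as paired-end mRNA libraries. The authors aligned reads to GRCm38 (mm10) and deposited counts per gene symbol, whole numbers without normalization. The submitters' processing notes name HISAT, HISAT2, Bowtie, Bowtie2 and RSEM, and the program and strand setting of the counting were not given in the sources used here. Of 48474 rows, 13329 held no count, and 2553 copy rows with a suffix held 4.11% of counts. They were kept as deposited but were not members.

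Counts were tested in R 4.3.3 with edgeR 4.0.16 (filter by expression with a minimum count of 10 and a minimum total of 15, TMM, quasi-likelihood test, genotype and batch in the model, Benjamini-Hochberg adjustment over 18248 genes, threshold 0.05, two-sided). The SE is the absolute log2 fold change divided by the square root of F. Each sample is a mouse of its own, and no number pairs mice across groups. Exonic length is the union of exons of protein-coding transcripts in the basic set of GENCODE M21. For some members it is shorter than the longest transcript of any type, as for Slc25a3 with 1946 against 4039 bases. Levels per kb rest on this choice. Overlaps and shared 100-base stretches come from the same annotation. Reads carried no molecular identifiers, so floors cover counting error only.

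Members and gene lists were chosen with earlier results of these data known. Full values are given for the 20 members with the largest absolute log2 fold change past the test, the 5 most abundant per kb, the relatives of uncoupling proteins and the mitoferrins, and for the 2 largest changes past the test in each list. Of these, 1 member and some list genes are not reported here, and the next largest of the list is given instead. Alternatives were DESeq2 1.42.0, library size only, upper-quartile scaling, a filter of 10 counts in each mouse or none, no batch term, Xist as covariate, each batch alone, no copy rows and leaving out each mouse. The procedures were tested on simulated data.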

Additional observations from a re-analysis of the deposited data

Results flagged for a closer look

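In each tested member, the highest and the lowest of the 10 TG mice were compared with the spread of the others. Of the 41 members, 7 had a TG mouse that stood apart, as the gap to its nearest neighbour was too large a share of the range of the group, and chance alone would give about 1 in 20 if the 10 mice were alike. That rate leaves out the batches, which differed in level in some members, and all the mice that stood apart were of batch A. The WT group, with 11 mice, was not searched in this way. TG mouse T61340 was the one in 5 of the 7. It was the highest for Slc25a38, at 928 normalized counts beside 761 in the next mouse (gap over range 0.478), and for the carnitine-acylcarnitine carrier Slc25a20, at 286 beside 249.7 (0.486). It was the lowest for the ornithine carrier Slc25a15, at 181 beside 217 (0.503), for Slc25a36, at 769.7 beside 989 (0.474), and for Slc25a53, at 119 beside 151 (0.508). TG mouse T60303 was the lowest for Slc25a12, at 2040.3 beside 2407 (0.499). TG mouse T61342 was the highest for the folate carrier Slc25a32, at 429 beside 365 (0.471). Without TG mouse T61340 the log2 fold change was 0.64 for Slc25a38 and 0.41 for Slc25a36, and without TG mouse T60303 it was -0.20 for Slc25a12, each with an adjusted p under 0.05 in edgeR's test.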

How the results depend on the processing

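Of the 21 members called, DESeq2, upper-quartile scaling and the filter of at least 10 counts in every mouse kept 21, and no filter, Xist as covariate, batch B alone, no copy rows and leaving out TG mice T60303 and T61340 together kept 20, with Slc25a40 lost. No batch term and scaling by library size only kept 19, with Slc25a23 and Slc25a40 lost. Scaling by library size only, which shifts the median of all genes to 0.076, gave 14 higher members in place of 9 and 10 lower in place of 12. Slc25a1, Slc25a17, Slc25a22, Slc25a30 and Slc25a47 were gained at 0.19, 0.11, 0.14, 0.26 and 0.37. Over all genes it called 8584 of 18248 in place of 8154, and the shares higher and lower were not taken. Batch A alone called 8, 7 higher and 1 lower. Leaving out a single mouse gave 9 to 11 higher and 11 to 12 lower members, and 0 members with a batch difference. The cause of these shifts was not tested. The log2 fold change of Slc25a40 ran from -0.23 to -0.16 without single mice, with an adjusted p of 0.0218 to 0.0982. No paired analysis was possible because the mouse numbers in the labels are unique to each mouse.

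Only members that did not pass the test changed sign. With library size only, Slc25a15 came to 0.00953, Slc25a24 to 0.0626, Slc25a29 to 0.0347, Slc25a33 to 0.0175 and Slc25a35 to 0.0131 (log2). In batch B alone, Slc25a10 came to -0.00922, Slc25a20 to -0.0098, Slc25a24 to 0.0077 and Slc25a32 to -0.0186. In batch A alone, Slc25a13 came to -0.522, Slc25a29 to 0.112 and Slc25a35 to 0.00404. Without TG mice T60303 and T61340, Slc25a10 came to -0.0214, Slc25a20 to -0.0054 and Slc25a24 to 0.0172. Without single mice, Slc25a10 ran from -0.00649 to 0.0523, Slc25a13 from -0.0176 to 0.138, Slc25a20 from -0.00634 to 0.0719, Slc25a24 from -0.0638 to 0.0215 and Slc25a32 from -0.0235 to 0.0561.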

Other observations

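The table held 8 copy rows of 7 members, written with a suffix, which were no members themselves. Whether a copy row shares reads with the first row of its symbol was not given in the sources used here, so that like counts or fold changes of the pair are not independent evidence. Relative to the total count of the member, the separate total of the copy row was 97.6% for Slc25a1, 94.5% for Slc25a11, 98.3% for Slc25a24, 50.03% for Slc25a32 and 24.6% for the astrocyte glutamate carrier Slc25a18. For the copies of Slc25a33 it was 83.6% and 86.2%, and the copy of Slc25a31 had 17 counts, as many as Slc25a31 itself. In the same fit, the copy of Slc25a11 had a log2 fold change of -0.27 (SE 0.053, adjusted p = 1.57e-04), beside -0.24 for Slc25a11 itself. The copy of Slc25a18 had -0.25 (SE 0.23, adjusted p = 0.407), with the same sign as Slc25a18 but a wider error.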
